A study of Macaca mulatta with 24 samples.

Results

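The blood described here was taken before irradiation from adult rhesus macaques (Macaca mulatta) of Chinese origin. It comprises the 7 pre-irradiation arrays of a series of 24, chosen by their sample titles alone. By the labels, 4 of the 7 arrays (replicates 1 to 4) held RNA of males and 3 (replicates 5 to 7) held RNA of females. No animal had yet received a dose. The labels place this blood at day 0, whereas the paper places it a few days before irradiation, and the later arrays of the series, which were not used here, followed a total body dose of 4 Gy. Every sample was whole blood collected in PAXgene tubes, from which globin transcripts had been depleted with a kit made for human RNA. No animal had more than 1 pre-irradiation array, so the spread between arrays holds differences between animals, bleeds and hybridizations together.

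Whole blood RNA is a mixture. Red cells and reticulocytes contribute globin and heme synthesis transcripts, platelets contribute the messages they received from megakaryocytes, and the white cells contribute the rest, with neutrophils, lymphocytes and monocytes in proportions that vary between healthy animals. Interferon-stimulated genes, which encode antiviral proteins, are known to vary between healthy individuals, and genes of the sex chromosomes follow the sex of the animal.

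Each array carried 43603 non-control probes of 60 bases, of which 23054 had a gene symbol in the scanner output and 893 more were named through an accession, giving 15046 symbols. Between 49.6 and 53.1% of the probes of an array were well above background, the scanner software's flag for a spot brighter than its surroundings. At most 4 probes of an array were saturated. Over the probes well above background on all 7 arrays, the Pearson correlation of log2 signal ran from 0.964 to 0.982 among the 21 pairs of arrays. The arrays lay on 4 slides, with replicates 1 and 6, 2 and 3, and 4 and 7 sharing slides. Replicate 5 was alone on its slide and was the one array of the second scan session. Signals are given below as log2 processed signal after each array was shifted to the median array, and a gene is represented by its brightest probe. Probes differ in how strongly they bind, so a brighter probe does not mean more RNA.

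Of the 15046 named genes, 8677 (57.7%) were well above background on all 7 arrays in at least 1 probe, 4100 (27.2%) were above background on no array, and the other 2269 were above background on some. Among the latter, 869 genes were above background on a single array and 362 on 6 arrays. Of 21 T cell genes with a probe, 20 were detected on every array, as were 17 of 19 B cell genes, 17 of 17 genes of natural killer and cytotoxic cells, 13 of 16 monocyte genes and 14 of 16 neutrophil surface and cytosol genes. The shares were lower for neutrophil granule (8 of 17), basophil and eosinophil (8 of 14) and progenitor genes (4 of 7), where 57.7% of all named genes were so detected. Markers of solid tissues differed by tissue. No array detected 15 of 20 liver genes, 14 of 16 testis genes, 13 of 21 neuron genes, 11 of 12 olfactory receptors, 9 of 19 epithelial genes or 4 of 17 muscle genes, where 27.2% of all named genes were undetected. Albumin (ALB) gave 3.23 to 3.81, the range of a spot at background, and the keratin KRT1 gave 3.24 to 3.80.

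Several textbook genes of blood cells gave no signal in their probes. PAX5, the transcription factor that holds B cell identity, lay between 2.94 and 4.33 with a median of 3.51 and was above background on none of the 7 arrays. Other B cell genes were bright, with the B cell receptor component CD79B at 14.15 to 14.71. The neutrophil genes ALPL (alkaline phosphatase), MMP8, OLFM4 and ARG1 were likewise undetected, the platelet adhesion receptor subunits GP1BA and ITGB3 gave no signal above background, and the red cell spectrin SPTB lay at 3.31 to 3.87. The immediate-early factor EGR1 was at 2.95 to 3.54 on all arrays, whereas IER2, another immediate-early gene, was at 15.32 to 15.73. Of 35 cytokine and chemokine genes, 9 were not detected, among them IL2, IL3, IL17A, IL21, IL1A and CCL2. The ribosomal protein gene RPL14 was undetected in its probe (3.14 to 3.89) while 70 of 71 ribosomal protein genes were detected on every array. A probe at background says only that this probe gave no signal. Some defining markers, among them CD3E, CD8A, FCGR3A, FCGR3B and CSF1R, had no named probe.

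The 15 brightest genes had means from 18.88 to 19.27. The alpha globin HBA1 ran from 18.59 on replicate 4 through a median of 19.10 to 19.98 on replicate 5, with a mean of 19.27 ± 0.48 (SD, n = 7), and HBA2 (mean 19.22) and the beta globin HBB (mean 19.14) were close to it. HBB was saturated on replicates 1 to 5, HBA1 and HBA2 on replicate 1 and MAMU-B on replicate 4, so the values there are lower bounds and the order of these genes is approximate. These globin probes were among the brightest in blood that had been depleted of globin transcripts. ALAS2, the first enzyme of heme synthesis in red cells, had a mean of 18.46. The actin ACTB, the antizyme OAZ1, the translationally controlled protein TPT1, the ferritin heavy chain FTH1, the class I histocompatibility gene MAMU-B, the mitochondrial ATP6 and the ribosomal proteins RPL23A, RPS28 and RPS19 had means between 18.88 and 19.10. MAMU-B had 9 probes, of which the dimmest ran from 6.46 to 12.52 over the arrays. The next gene in the order had a mean of 18.86, so no gap separated the 15 brightest from the rest.

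The spread of the brightest probes between arrays depended on the scaling. The constants removed from the arrays ran from 0.45 on replicate 4 to -0.80 on replicate 5. Before this shift, HBA1 lay between 18.98 and 19.25 and OAZ1 between 18.80 and 19.06, and the median SD of the 15 genes was 0.19 against 0.38 after it. The 15 include HBA1, HBA2, HBB and MAMU-B, whose saturated values make their spread uncertain. RPS19 went the other way, with an SD of 0.37 before the shift and 0.22 after it. Of the 11 genes that were saturated on no array, 10 were highest on replicate 5 after the shift and none before it, when 8 were highest on replicate 4. No order of the animals is read from these probes.

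For some of the brightest genes 1 probe stood far above the others. ZDHHC15, a palmitoyltransferase of the X chromosome, had a mean of 19.15 in its brightest probe and 6.04 in its other probe. UBE2B, a ubiquitin-conjugating enzyme, had 19.13 in its brightest probe and 10.45 and 8.66 in its other probes. The probe under TMBIM4 (mean 18.99) took its symbol from an accession, whereas the array's own description and position call it the immunoglobulin joining chain, so that its gene is unsettled.

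The spread between the 7 animals was small for most genes. Over the 8615 genes, the SD of log2 signal had a median of 0.31, with quartiles of 0.22 and 0.45, and 162 genes (1.88%) had an SD over 1. Of 50 probes spotted 5 times on each array, 23 were well above background on all arrays. Their SD within an array had a median of 0.063, and their SD between arrays had a median of 0.428. The first covers replicate spots of 1 hybridization, and the second covers animal, bleed, labelling and hybridization together. MNP2 had 0.081 within and 1.34 between arrays, the largest SD between arrays of the 23. The antiviral gene MX2 had 0.043 within and 0.751 between, and the chemokine receptor CXCR1 had 0.036 and 0.605.

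The 10 steadiest bright genes had SDs from 0.05 to 0.08. YKT6, a membrane fusion protein of the secretory pathway, lay between 14.12 and 14.26 (SD 0.05). The splicing protein TXNL4A, the co-chaperone PTGES3, the ubiquitin-conjugating enzymes UBE2K and UBE2L3, EMC6, CMTM6, PLEKHO1, KIAA2026 and the actin-binding thymosin TMSB4X had SDs between 0.07 and 0.08. TMSB4X, a bright probe on the X chromosome, lay between 18.23 and 18.48. Of 19 genes in common use as references with a level, the mean over the list moved by 0.22 between the lowest and the highest array.

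The most variable gene well above background on every array was RPS4Y1, a ribosomal protein gene of the Y chromosome (SD 5.19), described with the sexes below. The next 19 had SDs from 1.68 to 2.62, and the next gene in the order had 1.66. Of these 20 genes, replicate 5 had the highest value of 7 and the lowest of none, and replicate 4 had the lowest of 7. They fell into genes that stood apart on 1 animal, genes that graded over animals, and a set of probes that shared a sequence.

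CALCOCO2, an autophagy receptor, was the plainest case of 1 animal. It lay at 11.22 to 12.08 on 6 arrays and at 6.18 on replicate 4. DLK1, an imprinted membrane protein, was at 12.74 on replicate 2 and 7.33 to 9.39 elsewhere. ADGRG6, an adhesion receptor, was at 12.47 on replicate 1 and 7.22 to 9.25 elsewhere, and its second probe gave 10.31 on replicate 1 and 4.45 to 7.16 elsewhere. ST6GALNAC5, a sialyltransferase above background on 2 arrays, reached 15.47 on replicate 4 and 4.50 to 6.72 on the others. Its second probe was above background on no array. ATP6V0D2, a proton pump subunit, was at 12.37 and 9.92 on replicates 6 and 7 and at 3.49 to 5.93 on the rest, and its second probe ran the same way with 9.67 and 6.91. LY6D, a surface antigen, divided by sex, with 7.30 to 11.52 in the 4 males and 3.40 to 4.63 in the 3 females, where it was not well above background. It was not called between the sexes by limma (adjusted p = 0.236). Of the variable genes with more than 1 probe, the second probes of CNGA1, NAPSA and PLSCR4 were above background on 1 array each and that of SRMS on none. The second PLSCR4 probe was at 7.35 on replicate 6 and 2.99 to 3.40 elsewhere, another order than the first. Leaving out 1 array lowered the SD of 8 of the 20 by over 1.5 times. Without replicate 4 it was 0.34 for CALCOCO2 and 1.70 for LGALS17C, without replicate 2 it was 0.68 for DLK1, and without replicate 5 it was 1.25 for MB, the gene of myoglobin. Without replicate 1 it was 0.75 for ADGRG6, 1.33 for NAPSA, 1.37 for JPH3 and 1.46 for PLSCR4. For ST6GALNAC5 it was 0.79 without replicate 4, against 3.91 over all arrays.

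Other variable genes had a range of levels. The galectin LGALS17C ran from 5.74 on replicate 4 through a median of 11.02 to 14.20 on replicate 7. PRSS47, a serine protease gene named through an accession, ran from 6.80 on replicate 1 through 10.17 to 14.63 on replicate 5. CNGA1, a cyclic nucleotide-gated channel, ran from 5.90 on replicate 3 through 7.81 to 11.99 on replicate 5, with replicate 7 at 11.35. GPX1, a glutathione peroxidase, fell into a low pair (15.10 on replicate 4 and 15.46 on replicate 2) and 5 arrays between 18.54 and 19.62. NAPSA, an aspartic protease, was at 16.23 on replicate 1 and 14.63 on replicate 5 and lay between 11.10 and 11.83 on the other 5. NODAL, a secreted growth factor, was at 14.14 and 13.08 on replicates 5 and 6 and between 9.53 and 11.28 on the rest. The guanylate-binding protein GBP6 ran from 5.69 on replicate 2 to 10.69 on replicate 7, and the class II gene MAMU-DQB1 from 7.05 on replicate 3 to 12.60 on replicate 5. SRMS, CCDC81, GPIHBP1 and EPHB6 made up the rest, with SDs between 1.78 and 1.82.

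**Figure D1:**
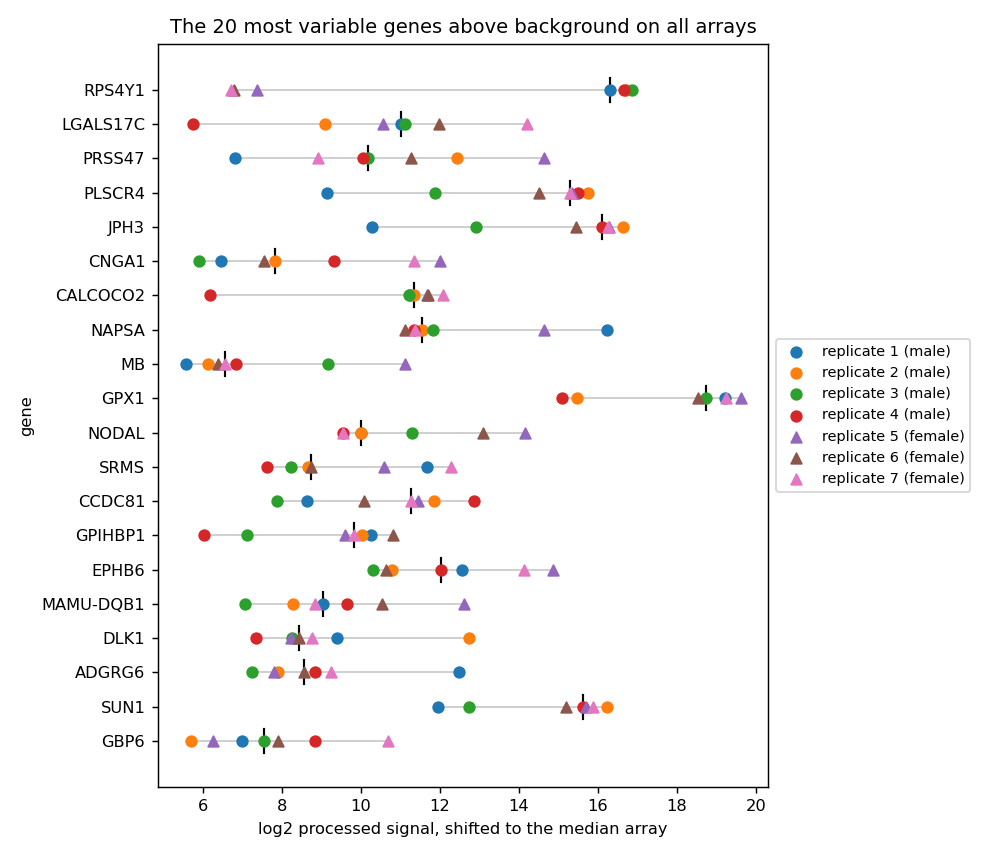
Log2 processed signal of the most variable named genes on each of the 7 pre-irradiation arrays, with 1 point per array, circles for males, triangles for females and a vertical tick at the median. CALCOCO2 stands low on replicate 4 (6.18), ADGRG6 high on replicate 1 (12.47) and DLK1 high on replicate 2 (12.74), whereas RPS4Y1 splits the arrays by sex.

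JPH3, PLSCR4 and SUN1 were lowest on the same arrays. Their probes share the repeated triplet in capitals below, and the probe of C10H20orf144 is shown because it holds the same letters.
JPH3: ttGCTGCTGCTGCTgtaagatggtttctgt
PLSCR4: tgtattctGCTGCTGCTGCTtattaaataa
SUN1: tttggtagtGCTGCTGCTGCTgccaccaaa
C10H20orf144: gatgccggtGCTGCTGCTGCTcctgcggca
The JPH3 probe lies at chr20:85728229-85728288 of the rheMac2 build, that of PLSCR4 at chr2:141598302-141598361, that of SUN1 at chr3:38802365-38802424 and that of C10H20orf144 at chr10:30938129-30938188, as the scanner output places them. JPH3, a junctional protein of excitable cells, was at 10.29 on replicate 1 and 12.92 on replicate 3 and at 15.44 to 16.65 on the others. PLSCR4, a scramblase, was at 9.14 and 11.86 on those replicates and at 14.51 to 15.75 elsewhere, and SUN1, a nuclear envelope protein, was at 11.95 and 12.73 against 15.19 to 16.23. Of 43603 probes, 6 (0.0138%) held GCTGCTGCTGCT. The letters were chosen after the values of JPH3, PLSCR4 and SUN1 were seen, so these 3 lend the choice no support. In the other 3, replicates 1 and 3 were again the lowest pair of arrays, with SDs of 1.36 (no symbol), 0.94 (C10H20orf144) and 0.56 (WDTC1). The share of all probes with this order was not counted, so nothing is read from these 3. The reverse complement AGCAGCAGCAGC was also in 6 probes, of which none had that order.

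**Figure D2:**
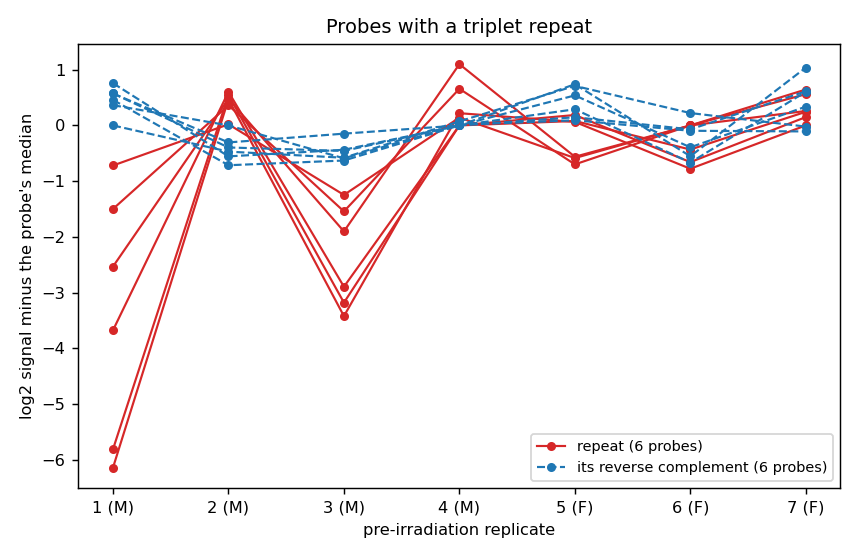
Log2 processed signal minus each probe's median on the 7 pre-irradiation arrays (M male, F female) for the 6 probes with the triplet repeat (solid lines) and the 6 with its reverse complement (dashed lines). The solid lines are lowest on replicates 1 and 3, and the dashed lines are not.

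Gene lists of blood cell types and pathways moved between the animals to different degrees. The level of a list is the mean over its members of each gene's difference from its own median over the arrays. In bulk blood, fewer cells of a type and less RNA per cell cannot be told apart. Against 1.88% of all genes, an SD over 1 was found in 8 of 25 interferon-stimulated genes and 4 of 24 erythroid genes, and in 0 of 69 ribosomal protein, 0 of 20 T cell and 0 of 17 B cell genes. The median SD of the members was 0.84 for neutrophil granule, 0.82 for basophil and eosinophil, 0.80 for interferon-stimulated, 0.74 for platelet, 0.71 for erythroid and 0.27 for ribosomal protein genes, where that of all genes was 0.31.

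Interferon-stimulated genes split the animals. The list stood at 0.70 on replicate 4 and 0.65 on replicate 7, near 0 on replicates 1 and 3 (0.00 and 0.12), and at -0.37, -0.76 and -1.02 on replicates 6, 5 and 2. Of 25 members with values on every array, 21 had replicate 4 among their 2 highest arrays and 21 had replicate 2 among their 2 lowest. ISG15, a ubiquitin-like modifier, ran from 11.21 on replicate 2 through 12.39 to 14.47 on replicate 4. OASL ran from 6.77 on replicate 2 to 10.17 on replicate 7, and HERC5, the ligase that attaches ISG15, from 7.17 on replicate 2 to 11.27 on replicate 4. The antiviral GTPase MX1 was at 11.85 on replicate 2 and 15.20 on replicate 4. IFIT1, by contrast, was highest on replicate 2 (15.87) and lowest on replicate 3 (14.21). Replicates 4 and 7, a male and a female, shared a slide, and replicates 2, 5 and 6 lay on 3 others. The part of the slide was not tested.

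Platelet genes were low on 1 animal. The list stood at -1.05 on replicate 3 and between -0.16 and 0.40 on the others, and 14 of 17 members had their lowest value there. PF4, a chemokine of platelet granules, was at 14.62 on replicate 3 and 14.84 to 16.20 on the others. PPBP, another, was at 13.46 against 13.80 to 15.45, and GNG11 at 11.41 against 12.05 to 13.42. For each of these the value of replicate 3 lay below all others. PTCRA, the pre-T cell receptor alpha gene placed on the platelet list, had the widest spread of the members, from 8.01 on replicate 3 to 11.83 on replicate 2.

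Erythroid genes were high on replicates 5 (0.61) and 1 (0.50) and low on replicates 3 (-0.50) and 4 (-0.37). The list holds HBA1, HBA2 and HBB, whose order of arrays depended on the shift. AHSP, the chaperone of alpha globin, ran from 13.46 on replicate 3 through 15.64 to 17.30 on replicate 5, and HEMGN from 11.59 on replicate 4 to 14.73 on replicate 5. The fetal globin HBG2 took another order, with 18.59 on replicate 2 and 15.72 on replicate 7. The transferrin receptor TFRC had the smallest SD of the list, from 10.33 to 11.16.

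Neutrophil genes gave 2 orders. Surface and cytosol genes were low on replicates 1 to 3 (-0.56, -0.73 and -0.55) and at 0.23 to 0.58 on replicates 4 to 7. The chemokine receptor CXCR2 was at 12.62 to 12.85 on replicates 1 to 3 and 13.69 to 14.49 on replicates 4 to 7, without overlap. VNN2, an ectoenzyme, had the widest spread of the list, from 9.19 on replicate 3 to 13.17 on replicate 7. Granule genes were high on replicates 1 (0.97) and 5 (0.93) and lowest on replicate 3 (-0.87), but 6 of the 14 members entered by passing background on some arrays. Over the 8 above background on every array, replicate 5 stood at 0.85, replicate 6 at 0.56, replicate 1 at 0.49 and replicate 3 at -0.64. The lactoferrin gene LTF was at 11.52 on replicate 1 and 8.86 on replicate 7, and myeloperoxidase (MPO) at 8.55 on replicate 1 and 5.96 on replicate 7. CAMP, an antimicrobial peptide, was bright throughout at 16.76 to 17.57.

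Lymphocyte lists varied less. The T cell list ran from -0.33 on replicate 5 to 0.32 on replicate 2. Its most variable member, the homing receptor CCR7, ran from 15.19 on replicate 1 through 16.03 to 17.12 on replicate 3, and the kinase ZAP70 from 14.73 to 14.98. The B cell list ran from -0.19 to 0.23, with FCER2 the most variable at 6.41 on replicate 7 to 8.42 on replicate 6. Cytotoxic genes were high on replicate 1 (0.47) and low on replicates 6 (-0.37) and 3 (-0.32). Granzyme B (GZMB) was bright on all, at 17.02 to 18.21, whereas FGFBP2, a marker of cytotoxic cells, ran from 8.72 on replicate 5 to 12.04 on replicate 1. Monocyte genes ran from -0.26 on replicate 3 to 0.47 on replicate 5.

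Replicate 7 was at an end of both lists of antigen presentation. The class I list was at 0.54 there and between -0.30 and 0.07 elsewhere, and 9 of 15 members had their highest value on it. The immunoproteasome subunit PSMB8 was at 16.45 on replicate 7 against 14.14 to 15.44. The class II list was lowest there (-0.47), with replicate 3 next (-0.26) and the others at 0.02 to 0.24, and MAMU-DQA1 at 11.45 against 12.33 to 14.29. Ribosomal protein genes were low on replicate 6 (-0.42, against -0.09 to 0.14), where 46 of 69 had their lowest value.

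**Figure D3:**
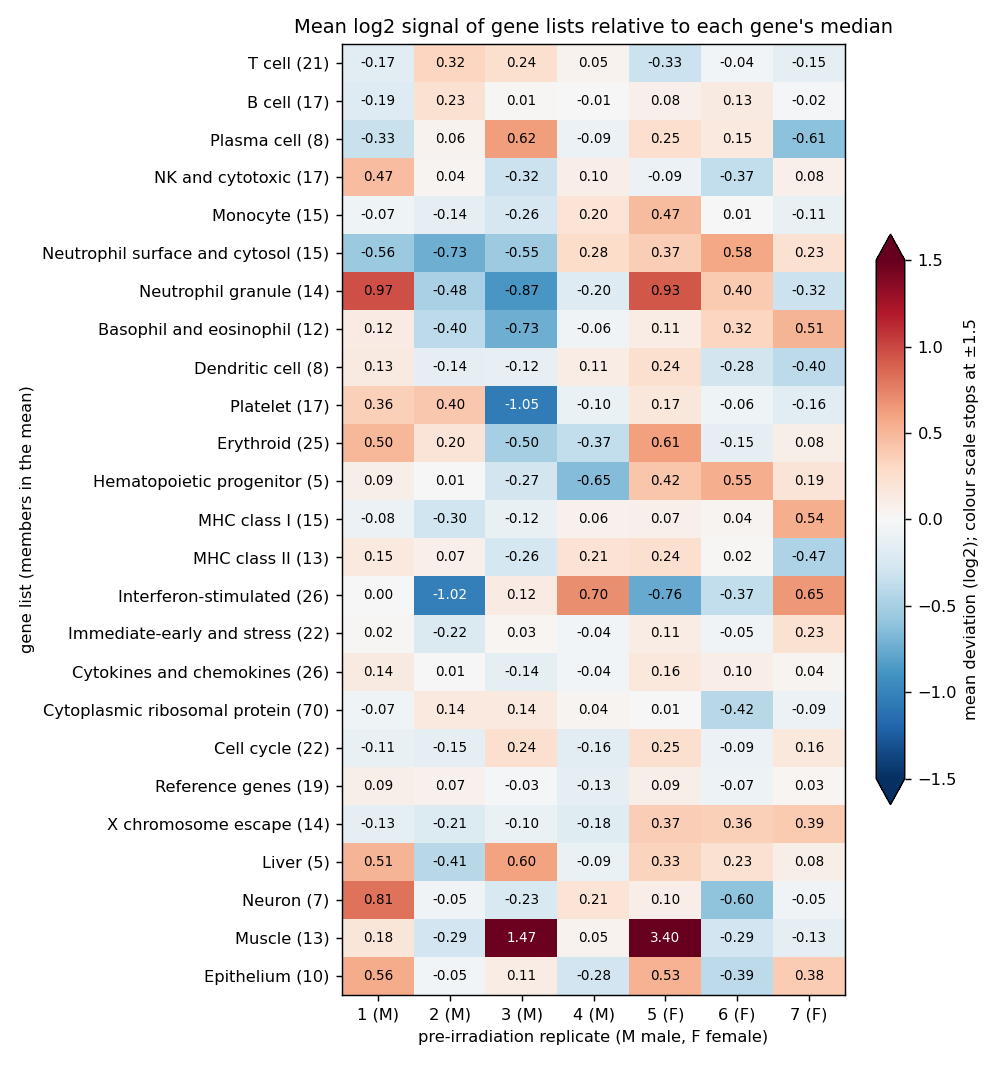
Level of each gene list (mean over members of log2 signal minus the gene's median) on the 7 pre-irradiation arrays, 1 column per array and 1 row per list, with the number of members in brackets and the value in each cell; colours stop at ±1.5. The platelet list is low on replicate 3 (-1.05), the interferon-stimulated list is high on replicates 4 and 7 and low on replicate 2 (-1.02), and the muscle list is high on replicates 5 (3.40) and 3 (1.47).

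Among the lists with 5 or more members, the Y chromosome list had the widest range, 4.67, and the list of skeletal muscle the next, 3.69. The muscle list stood at 3.40 on replicate 5 and 1.47 on replicate 3, and between -0.29 and 0.18 on the other 5 arrays. Of 13 members above background on at least 1 array, 12 had their highest value on replicate 5 and 1, the myogenic factor MYOD1, on replicate 3. TTN and NEB entered through replicate 5 alone and MYOD1 through replicate 3 alone, so that this count and the list level follow in part from the filter. All 6 members above background on every array (ACTA1, MYL1, TNNT3, TNNI2, DES and PYGM) had their highest value on replicate 5. The mean level of these 6 was 1.82 on replicate 5, 0.22 on replicate 3 and -0.43 to 0.14 on the rest, so that the height of replicate 3 in the list rests on the other members. Of the 17 members with a probe, 4 members (MYL2, TNNT1, MYOG and ACTC1) were detected on no array. The giant sarcomere protein titin (TTN) was at 8.62 on replicate 5 and 3.31 to 5.13 elsewhere, and nebulin (NEB) at 7.27 against 3.09 to 3.71. The fast myosin heavy chain MYH2 was at 12.30 on replicate 5, 8.88 on replicate 3, 6.99 on replicate 4 and 2.94 to 4.13 on the rest. The myosin light chain MYL1 was at 11.59 on replicate 5 and 9.51 on replicate 3, with the others at 7.74 to 8.96. The oxygen carrier myoglobin (MB), which was not on the list, followed with 11.10 on replicate 5 and 9.16 on replicate 3, against 5.56 to 6.83. Desmin (DES) was bright on every array, at 14.48 to 16.41. Replicate 5 was the array of the second scan session, and replicate 3 was of the first, on a slide with replicate 2, whose list level was -0.29. What brought these transcripts was not tested.

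**Figure D4:**
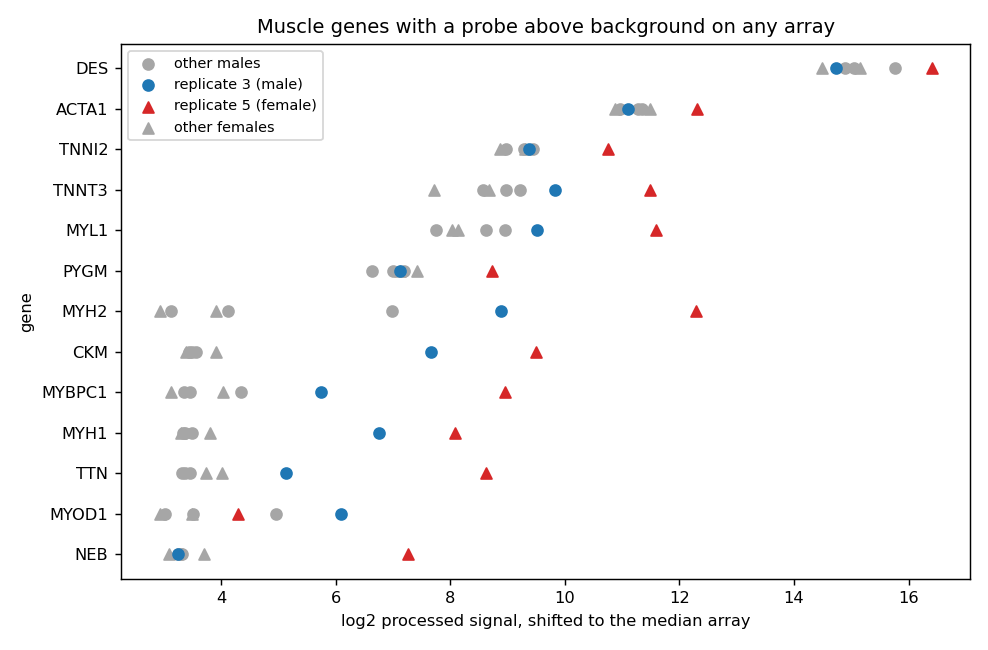
Log2 processed signal of 13 skeletal muscle genes on the 7 pre-irradiation arrays, 1 row per gene and 1 point per array, with replicates 3 and 5 in colour, the other arrays in grey, circles for males and triangles for females. Replicate 5 is the highest array for the 6 genes above background on every array, and MYH2 reaches 12.30 on it and 8.88 on replicate 3.

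The sexes were compared with limma over 22972 probes well above background on at least 3 arrays. At a Benjamini-Hochberg adjusted p under 0.05, 16 probes (0.0697%) were called, 14 higher in males (0.0609%) and 2 higher in females (0.00871%). None of the 16 overlapped between the sexes, but neither did 2783 of all probes tested (12.1%). RPS4Y2, EIF1AY, UTY, TBL1Y, USP9Y, TAS1R1 and some probes with no symbol passed the filter through the males alone. Another with no symbol, described below, passed through the females alone. Their entry to the test thus depended on the sex compared. With no filter on dim probes, 15 of 43592 probes were called. Of 9 tested genes of the Y chromosome list, 6 were called higher in males in their brightest probe. CYorf15A was lower in females by 2.87 but not called (adjusted p = 0.300). ZFY and DDX3Y had the higher mean in females in that probe, by 0.69 and 0.30, and were not called in it. The scanner output holds no position on a Y chromosome in rheMac2, and it places RPS4Y1 on chr5 and RPS4Y2 and EIF1AY on chr20. Both DDX3Y probes and the brightest ZFY probe are placed on chrX, the latter at chrX:22033946-22034005 near the ZFX probe at chrX:22036292-22036351.

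RPS4Y1 lay at 16.30 to 16.88 in the 4 males and 6.70 to 7.35 in the 3 females, a difference of -9.69 ± 0.23 (SE; adjusted p = 1.72e-06). RPS4Y2 lay at 15.18 to 15.72 in males and was not well above background in females. Males were about 2180-fold higher by the floor given below (adjusted p = 9.6e-06). The translation factor EIF1AY was about 71.3-fold higher in males (adjusted p = 5.43e-05) and the histone demethylase UTY about 27.7-fold (adjusted p = 2.37e-05). TBL1Y was about 26.3-fold higher in males (adjusted p = 0.0064) and the deubiquitinase USP9Y about 8.99-fold (adjusted p = 0.000752). In each of these folds the female level was taken, array by array, as the probe's signal or, where that was lower, a floor. The floor was the dimmest signal that the array still flagged as above background, at 5.22, 2.91 and 3.43 on replicates 5, 6 and 7. On replicates 6 and 7 it lay as low as spots at background, so these folds are approximate and not lower bounds. The helicase DDX3Y gave 2 answers. Its brightest probe lay at 13.91 to 14.78 on all arrays, females included, and its dimmer probe at 7.75 to 8.34 in males and 6.30 to 6.42 in females (difference -1.64, adjusted p = 0.0396). They are placed at chrX:39118813-39118872 and chrX:39114033-39114092, on either side of the DDX3X probe at chrX:39115938-39116299. Whether they read DDX3Y or DDX3X was not tested. KDM5D, also of the Y chromosome, was detected on no array.

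The largest difference in the other direction belonged to a probe with no symbol at chrX:72942865-72942924. It lay at 14.15 to 14.68 in females and 2.95 to 3.07 in males, where it was above background on no array. Females were about 2496-fold higher by the same kind of floor, taken for the males (adjusted p = 1.32e-07). Genes known to escape X inactivation all had the higher mean in females, 14 of 14 tested, with a median difference of 0.48 where that of all probes tested was -0.02. None was called by limma at an adjusted p under 0.05. An unadjusted p under 0.05 was found in 8 of 14, where 11.4% of all probes tested had one, and 9 of 14 did not overlap, where 12.1% of all probes tested did not. The zinc finger gene ZFX was at 6.96 to 7.14 in females and 5.70 to 6.23 in males, the cohesin subunit SMC1A at 9.43 to 9.68 and 8.40 to 8.60, and DDX3X at 9.91 to 9.92 and 8.68 to 9.39. The dimmer SMC1A probes overlapped between the sexes, with differences of 0.27 and -0.08. RDM1, a DNA repair gene on chr16, was the second probe called higher in females, with 9.90 to 10.17 against 7.65 to 8.53 in males (adjusted p = 0.0396).

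Transcripts of the mitochondrial genome divided by gene. Of 20 probes of 13 such genes, 3 were called, where 0.0697% of all probes tested were, and 5 did not overlap between the sexes, where 12.1% of all probes did not. The differences of the other 15 ran from -1.15 to 0.34. Both probes of ND3, a subunit of complex I, were lower in females, but they share 59 of 60 bases and are nearly 1 probe. The brighter lay at 14.72 to 15.16 in males (mean 14.96) and had a mean of 11.90 in females, with a lowest value of 11.81 (difference -3.06 ± 0.17 SE, adjusted p = 0.000476), and the other differed by -3.14 ± 0.18. COX2, a subunit of cytochrome oxidase, had probes that overlapped over 52 bases and differed from each other at 2 of them, in capitals below.
ND3: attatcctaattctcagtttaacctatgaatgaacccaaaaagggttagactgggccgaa
COX2 dimmer probe: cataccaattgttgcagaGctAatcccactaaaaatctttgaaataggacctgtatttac
COX2 brighter probe: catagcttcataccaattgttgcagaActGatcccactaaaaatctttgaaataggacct
Counted from 1 at the 5′ end of the dimmer probe, the substitutions from the dimmer to the brighter probe were G19A and A22G. In the dimmer probe the sexes differed by -3.16 ± 0.30 (SE; adjusted p = 0.0127), with 15.65 to 16.49 in males and 12.37 to 13.34 in females. In the brighter probe they differed by -1.52 ± 0.31 (adjusted p = 0.246), with 16.29 to 17.34 and 14.93 to 15.75. Whether these differences between the sexes were themselves unequal was not tested. The only other mitochondrial gene without overlap was ND6, which is encoded on the opposite strand to the rest and was higher in females by 2.08 (adjusted p = 0.0555). For other subunits the sexes overlapped, with COX3 at 18.38 to 19.09 and CYTB at 16.86 to 17.77 over all arrays. Where the scanner output gives a position, it places these probes on nuclear chromosomes or on unplaced sequence of rheMac2, with ND3 at chrUr:316627-316686 and COX2 at chr3:16054852-16054911 and chr3:16054860-16054919. With 4 animals against 3, sex cannot be told apart from any other trait that divides these animals in the same way.

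**Figure D5:**
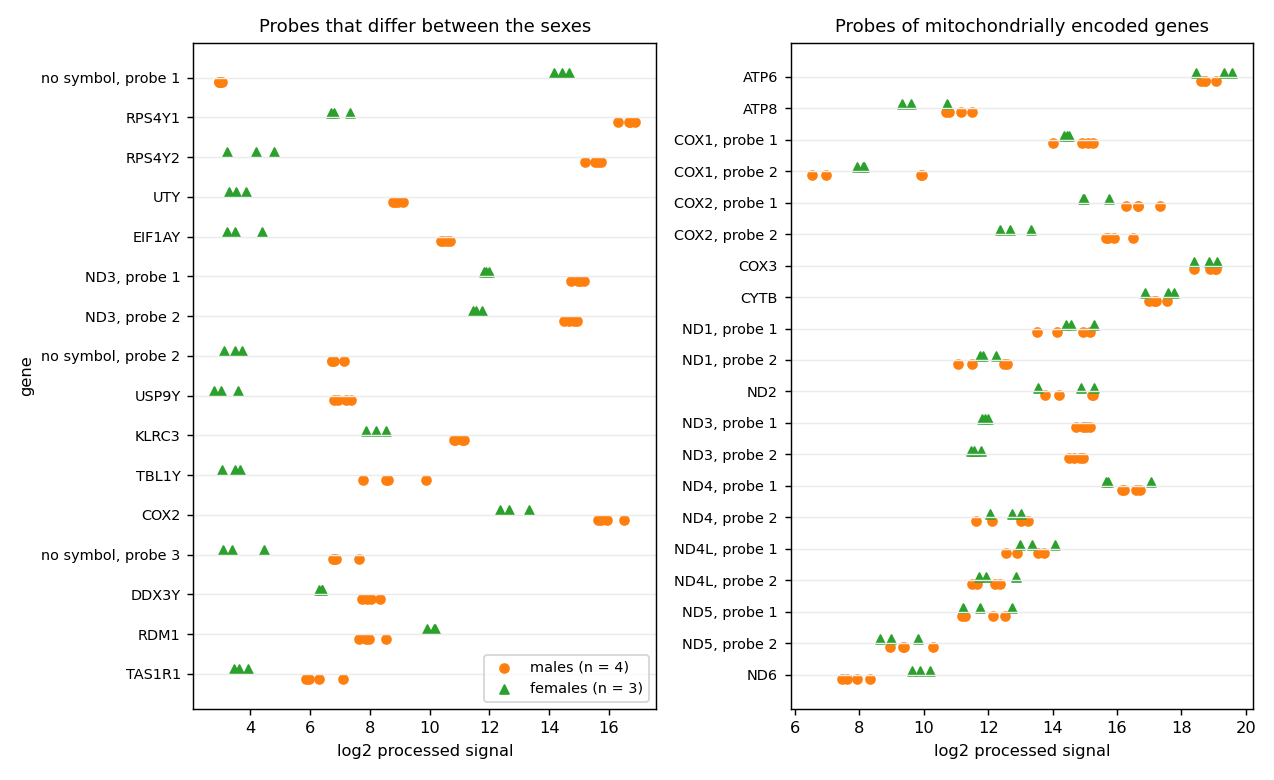
Log2 processed signal of the 16 probes called between the sexes (left) and of the 20 probes of mitochondrially encoded genes (right), 1 row per probe, with circles for 4 males and triangles for 3 females. RPS4Y1 and the first unnamed probe split by sex in opposite directions, and the ND3, COX2 and ND6 probes are the 5 mitochondrial ones without overlap.

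KLRC3, an activating receptor gene of natural killer cells, had 6 probes, and all 6 were lower in females, by 1.15 to 2.77. The third brightest was called, with 10.81 to 11.14 in males and 7.87 to 8.53 in females (adjusted p = 0.00249), and the other 5 had adjusted p between 0.123 and 0.309. KLRC3 has close paralogs among the killer cell lectin receptors, and which of them a probe reads was not tested. TAS1R1, a taste receptor gene named through an accession, was about 4.14-fold higher in males by the floor used above (adjusted p = 0.0495). That call was lost with the slide as a random block, with all spots kept, with no filter on dim probes and under normexp.

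The calls differed in how they held. When each array was left out in turn, 10 of the 16 probes, among them RPS4Y1, RPS4Y2, UTY, EIF1AY, both ND3 probes, USP9Y and KLRC3, were called every time. TBL1Y was lost without replicate 5, 6 or 7, COX2 without replicate 2, 3, 5 or 6, DDX3Y without any 1 of the 7, and RDM1 and TAS1R1 without any but replicate 1. Within the 2 slides that held a male and a female array, the difference had the same sign for all 16. Probes without overlap between the sexes cannot give another outcome, so nothing is read from it. The number of probes called fell to 4 when the background was corrected by normexp. In the authors' normalized values 8 of the 16 had no test, and of the 8 that had one 6 were called, all but DDX3Y and RDM1.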

How the data were processed

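Whole blood RNA of 7 pre-irradiation samples was measured on one-colour (Cy3) Agilent arrays of a rhesus design by labels and file headers, although the methods in the paper call the array human. The labels name Feature Extraction 10.7 and the file headers 12.0.2.2. The authors' scanner output gives each spot's processed signal, a linear intensity from which the software took the local background, putting a surrogate in place of values too low. The authors' deposited value table, used as an alternative, holds log2 of this intensity plus 1 constant per array after normalization to the median array, with some cells empty, over 18497 rows matched to probes here. Its 17 columns of irradiated arrays were not used.

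Here spots with the non-uniformity or population outlier flag were dropped and saturated ones retained. Replicate spots were averaged on the log2 scale, and a constant, the median difference from replicate 3 (the array of middle signal), was removed from each array. The shifts ran from -0.80 to 0.45. The probe of highest mean stands for a gene, which counts as detected when any of its probes is well above background. Probe positions are those of the scanner output (rheMac2), and no annotation of exons or genome of that build was used. Genes named are the 15 brightest, the 20 most variable and 10 least variable (the latter among the brightest 10% of signals) of those well above background on all arrays in their brightest probe, the 8 most variable of those above background on some arrays, up to 10 called between the sexes, and from each of 31 lists the brightest, the most and least variable and undetected members. Other genes, and the shared letters of probes, were chosen after their values were seen. Some items are not reported here. The members and lists were chosen with earlier results of these data known.

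Females and males were compared by limma 3.58.1 in R 4.3.3, two-sided, with Benjamini-Hochberg adjustment over all probes well above background on at least 3 arrays. Each array is of another animal, and the labels do not say which samples were bled or processed together. In data simulated on 22848 probes for the comparison of females with males, differences of 1, 2, 3 and 5 on the log2 scale were recovered in 26, 66, 80 and 92% of the changed probes, with 7 false calls. The correlation of arrays on 1 slide was -0.01. The number of arrays limits the precision. Alternatives were scaling to the 75th percentile, quantile normalization, normexp background correction with an offset of 50, all spots kept, the authors' values, other filters on dim probes, other measures of spread, the slide as a random block (statmod 1.5.0) and each array left out, with 2 more chosen after the data were seen. Tables were made in Python 3.11.15 with numpy 2.4.6 and pandas 2.3.3, and figures with matplotlib 3.10.9.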

Additional observations from a re-analysis of the deposited data

Results flagged for a closer look

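In 14 of 141 genes and lists examined, the highest or lowest of the 7 arrays stood apart from the rest by a Dixon gap ratio above 0.568. Chance flags about 1 in 20 groups, but many of these genes were named for a large SD and the muscle genes vary together, so nothing is read from the count. Values are differences of that array from the median of the other arrays, on the log2 scale. Replicate 5 held 5 of them, all muscle genes: TTN stood 5.02 above the others, NEB 3.99, PYGM 1.61, TNNI2 1.46 and ACTA1 1.12. TTN and NEB entered the list through replicate 5 alone, so their flags follow in part from the filter. Their differences are taken against signals not above background. On replicate 4, CALCOCO2 differed by -5.33, HSPA6 by -1.64 and ST6GALNAC5 by 10.4. ST6GALNAC5 was above background on 2 arrays, so most of the signals it is set against were not above background. On replicate 1, ADGRG6 stood 4.24 and NR4A2 2.65 above the others. DLK1 stood 4.40 above the others on replicate 2, and FLT3 differed by -1.87 on replicate 7. The platelet list differed by -1.10 on replicate 3 and the cytoplasmic ribosomal protein list by -0.44 on replicate 6.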

How the results depend on the processing

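No paired analysis was possible because each animal had 1 pre-irradiation array and the sexes are different animals. Of 419 summary results recomputed under the alternatives, 386 kept their value within the margin set and 33 moved. These were counts, medians and ranges, which have no direction to reverse. The median SD of the genes ran from 0.293 to 0.317 with each array left out. With the scanner's less strict flag, a signal positive and significant, the genes detected on no array fell to 1613. The most variable genes kept 13 of 20 members under normexp, 6 by the median absolute deviation and 6 when genes above background on at least 4 arrays were ranked. Under normexp the range over arrays of the list mean was 0.277 for B cell, 0.659 for progenitor, 1.36 for MHC class I, 0.794 for cytokine, 0.980 for ribosomal protein, 0.675 for reference, 1.66 for liver and 1.73 for epithelial genes. The cytokine range was 0.153 under quantile normalization, 0.507 with all spots kept and 0.436 in the authors' values. In the authors' values, the reference range was 0.332 and the muscle range 2.26. The probes differing between the sexes numbered 4 under normexp, 6 in the authors' values, where 14215 probes were tested and 8 of the 16 had no test, and 10 at an adjusted p under 0.005. With each array left out, the list range ran from 0.248 to 0.423 for B cell (lowest without replicate 1), 0.469 to 0.835 for cytotoxic (without replicate 1), 0.457 to 0.728 for monocyte (without replicate 5), 0.558 to 1.44 for platelet (without replicate 3), 0.375 to 0.847 for MHC class I (without replicate 7), 0.277 to 0.442 for immediate-early (without replicate 2), 0.157 to 0.298 for cytokine (without replicate 3), 0.250 to 0.559 for ribosomal protein (without replicate 6), 0.811 to 1.41 for neuron (without replicate 1) and 1.76 to 3.69 for muscle genes (without replicate 5). Alternatives chosen after the data were seen were lists of the members above background on all arrays, where the muscle range was 2.25 and the cytokine range 0.479, and no shift between arrays, where the median SD of the 15 brightest genes was 0.191. Of the 16 probes called between the sexes, 12 were lost under at least 1 alternative, with 52 losses in all, and 9 levels of bright genes moved, all under normexp. The cause was not tested. Signal over background limits what can be said of dim probes.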

Other observations

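Rarer blood cells left their own pattern. Plasma cell genes stood at 0.62 on replicate 3 and -0.61 on replicate 7 as a list, and the joining chain of secreted antibodies, JCHAIN, was at 13.31 and 10.80 on these arrays in the probe that carries its symbol. The probe under TMBIM4, which the array's description calls the joining chain, did not follow, at 18.86 and 19.28 (18.86 and 18.67 before the shift between arrays). TNFRSF17, the survival receptor of plasma cells, was at 8.74 and 6.44. Of the 8 members, 5 had their lowest value on replicate 7, but the transcription factors XBP1 and PRDM1 had their highest there (15.06 and 11.15). Basophil and eosinophil genes ran from -0.73 on replicate 3 to 0.51 on replicate 7, and over the 8 of 12 members above background on every array replicate 6 was highest (0.66). EPX, the eosinophil peroxidase, ran from 5.22 on replicate 3 through 6.68 to 8.71 on replicate 1, while HDC, which makes histamine in basophils, was at 8.32 to 8.73 on replicates 5 to 7 and 6.09 to 7.29 on replicates 1 to 4. GATA2, a factor of progenitors and basophils, was at 11.67 to 12.54 on replicates 5 to 7 and at 9.79 to 11.12 on the others. HDC and GATA2 were not called between the sexes, and both were singled out after their values were seen. Cell cycle genes were detected on every array for 21 of 22, and their list moved by 0.41.

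Some genes named for other tissues were well above background in blood. Besides DES, the neuronal growth protein GAP43 was at 10.26 to 13.07, the glutamate receptor subunit GRIN1 at 10.55 to 12.57, the apolipoprotein APOA2 at 9.39 to 10.96 and the keratin KRT14 at 8.00 to 9.70. Each was detected on 7 of 7 arrays, and what these probes bound was not tested.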
